A study of Mus musculus with 4 samples.

Results

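Fibroblast and mesothelial cells were a minor population in a single-cell RNA sequencing series of sorted AT2 cells, the alveolar epithelial cells that make surfactant. A cell was a member if it had at least 500 detected genes, at most 20% mitochondrial counts, counts for at least 4 of 10 mesenchymal and mesothelial genes (Col1a1, Col1a2, Col3a1, Dcn, Mgp, Bgn, Serping1, Igfbp5, Msln and Upk3b) and counts for fewer than 3 of 5 endothelial genes (Cldn5, Ramp2, Plvap, Cdh5 and Pecam1). This gave 73 members of 10756 cells that passed the filter. The 35 members with a count for Msln or Upk3b form the mesothelial subset, and the other 38 are called the remaining members. The cells were selected on the values of these genes, so the levels of the selection genes and every contrast of members with other cells or of the subset with the remaining members are given as descriptions, with no test.

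All mice were Sftpc-creER;Rosa26-mTmG and received tamoxifen, so that recombination driven from the promoter of the AT2 gene Sftpc switches a membrane reporter to GFP. The 4 libraries were made from cells sorted as GFP-positive, CD45-negative (no leukocytes) and CD31-negative (no endothelium). They are PBS at day 0 and bleomycin at day 30, each in mice treated at 3 months and at 12 months of age. Bleomycin, a drug that injures the alveolar epithelium and is followed by scarring, was delivered once into the trachea at 0.8 U/kg, and PBS was the control. Each library pooled 3 mice and is the only library of its group, so differences between groups could not be set against a spread between replicates and were not tested. GFP is not among the genes of the files, so the lineage label of the members was not analysed here.

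Fibroblasts make and remodel the matrix of the lung. Alveolar fibroblasts lie beside AT2 cells and support them, smooth muscle cells and myofibroblasts carry contractile proteins, and pericytes wrap capillaries. Mesothelial cells form the single-layered covering of the lung surface; they share keratins and cell junctions with epithelium and matrix genes with fibroblasts. After lung injury, fibroblast states with high collagen, Cthrc1 and Postn are known from fibrotic tissue.

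The filtered libraries held 2394 to 2993 cells, and the bleomycin libraries were the deeper ones: the median cell outside the members had 4558.5 counts in 3-month PBS, 5080 in 12-month PBS, 8334 in 3-month bleomycin and 11768.5 in 12-month bleomycin. The 10841 distinct barcodes included 68 found in more than 1 library, and 1 member barcode was also present in another library, where it was not a member. Intervals below are 95% intervals and cover counting error only.

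Members were scarce in both PBS libraries and more frequent in both bleomycin libraries. They were 4 of 2394 cells in 3-month PBS (0.167%, exact Clopper-Pearson interval 0.0455 to 0.427) and 5 of 2745 in 12-month PBS (0.182%, 0.0592 to 0.425). They were 25 of 2624 cells in 3-month bleomycin (0.953%, 0.617 to 1.40) and 39 of 2993 in 12-month bleomycin (1.30%, 0.928 to 1.78). The intervals of both PBS libraries lay below those of both bleomycin libraries, and the intervals of the ages overlapped within each treatment. These are shares of GFP-positive, CD45-negative and CD31-negative sorted cells, so the sort and its gate can set them, and they are not shares of the lung.

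Because the rule counts detected genes, the shares were recomputed after thinning. At 3000 counts per cell the shares were 0.0499% (1 of 2003 cells), 0.124% (3 of 2424), 0.876% (22 of 2510) and 1.27% (38 of 2993) in the same order. Cells below that depth were left out, which removed 391, 321, 114 and 0 cells, among them 3, 1, 3 and 0 members. At 2000 counts the shares were 0.0878%, 0.0381%, 0.915% and 1.24%, with 1, 1, 0 and 0 members left out. The shares of both bleomycin libraries were above those of both PBS libraries in each setting, but the depth limit itself removed 3 of the 4 members of 3-month PBS at 3000 counts, and the part of depth in the difference was not tested further.

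**Figure D1:**
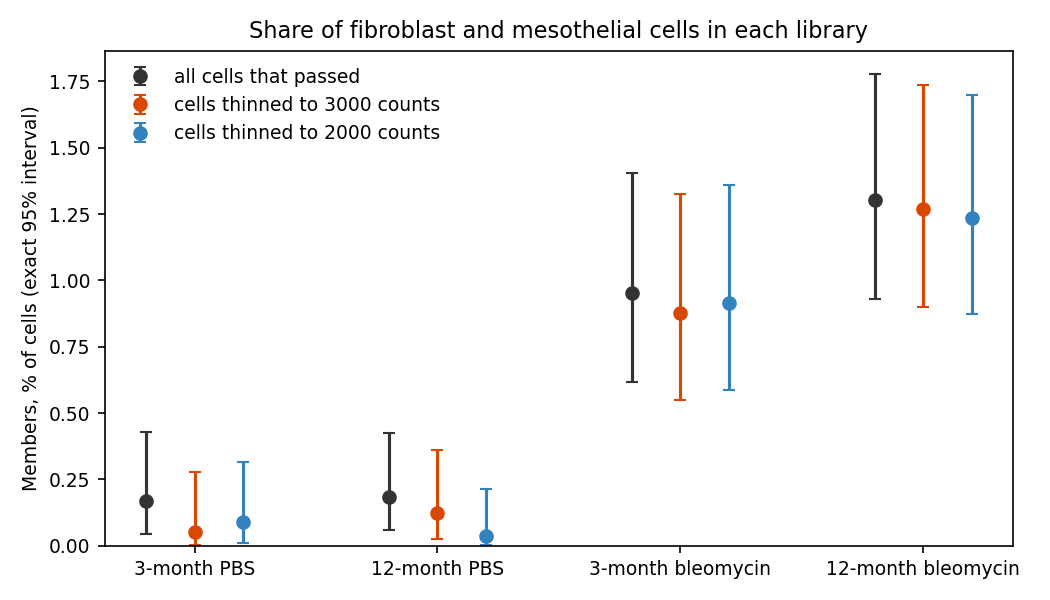
Share of fibroblast and mesothelial cells among the cells that passed the filter (vertical axis, percent) in the 4 libraries, for all cells and for cells thinned to 3000 or 2000 counts; points are shares and bars exact 95% intervals for counting error. Both PBS libraries sit at or below 0.182% and both bleomycin libraries at or above 0.876% in every setting drawn.

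The mesothelial subset was 0 of 4 members in 3-month PBS, 2 of 5 in 12-month PBS, 15 of 25 in 3-month bleomycin (60.0%, 38.7 to 78.9) and 18 of 39 in 12-month bleomycin (46.2%, 30.1 to 62.8). Of the 2 cells in 12-month PBS, 1 had 3 counts of Msln and a mesothelial profile, and the other had AT2 levels of surfactant transcripts. Members had a median of 2644, 4311, 7098 and 10274 counts in the 4 libraries and gave 9867, 28005, 189701 and 452411 counts in all. The PBS members, fewer than 10 cells a library, are given as values only, and no ratio of bleomycin to PBS was formed.

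The rule itself sets the members apart from the other cells on the selection genes, so their detection is given as a description. Bgn, the small proteoglycan biglycan, had a count in 71 of 73 members and in 2.25% of the other cells. Mgp, the matrix Gla protein that inhibits calcification, had one in 69 members and in 6.35% of the other cells, and in 17.8% of the other cells of 12-month bleomycin. The collagen gene Col3a1 had one in 66, the complement C1 inhibitor gene Serping1 in 65, Col1a2 in 63, Col1a1 in 55, the proteoglycan gene Dcn in 49, and Igfbp5, which encodes a binding protein of insulin-like growth factors, in 41. The mesothelial surface genes Upk3b (GRCm38, chromosome 5, 136038496 to 136046487) and Msln (chromosome 17, 25748613 to 25754378) were found in 34 and 32. Just inside the threshold, 6 members had exactly 4 of the 10 genes and 6 had 5. Just outside, 34 cells with fewer than 3 endothelial genes had 3: none in 3-month PBS, 2 in 12-month PBS, 6 in 3-month bleomycin and 26 in 12-month bleomycin. Of those 34 cells 20 carried AT2 transcripts at or above a limit, against 2 of the 6 members with 4 genes. The limit was the median share of 12 AT2 markers in the other cells of the library, divided by 4.

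Most members carried little surfactant RNA. The median member had 12042 CPM (counts scaled to the total of the cell or summed cells) of Sftpc, the surfactant protein C gene, in 3-month PBS, 12758 in 12-month PBS, 11836 in 3-month bleomycin and 11619 in 12-month bleomycin. Endothelial-marker cells, which should lack the gene, had medians of 14346, 10095, 11512 and 11836 CPM, and all other cells 127708, 147047, 162555 and 151707 CPM. Sftpc in the typical member was thus at the level seen in cells that should have none. The exceptions were 6 members whose 12 AT2 markers took at least the median share of the other cells of their library divided by 4: 0, 2, 2 and 2 in the 4 libraries, with Sftpc between 45603 and 172222 CPM. Scrublet called 2 members as doublets, both in 12-month bleomycin and neither among those 6.

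**Figure D2:**
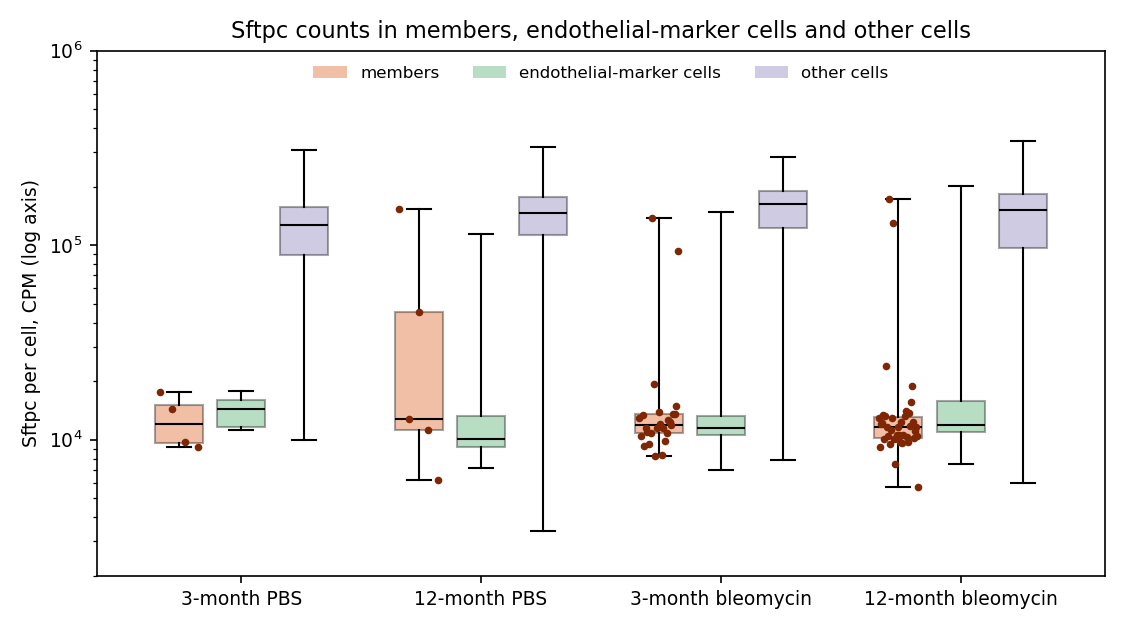
Sftpc per cell in CPM (vertical log axis) in the members (points and box), in endothelial-marker cells and in all other cells of the 4 libraries; boxes show quartiles and median, whiskers the lowest and highest cell. The member medians lie between 11619 and 12758 CPM, beside those of the endothelial-marker cells, and 6 members lie between 45603 and 172222 CPM.

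The label was checked against markers outside the 10 selection genes. At least 7 of 14 further mesothelial markers were detected in 33 members (0, 1, 15 and 17 in the 4 libraries), all of them in the mesothelial subset, and in 1 of 10683 other cells. At least 7 of 12 alveolar fibroblast markers were detected in 12 members (2, 2, 3 and 5), and in 1 other cell. At least 7 of 11 smooth muscle and myofibroblast markers were detected in 9 members (1, 0, 6 and 2), and in 1 other cell. At least 5 of 8 pericyte markers were detected in 1 member, in 3-month bleomycin, and in 3 other cells. At least 5 of 12 markers of fibrosis-associated fibroblasts were detected in 13 members, all in 12-month bleomycin, and in 0 of 10683 other cells. These limits were set after the values were seen, they are ranges of a marker count rather than cell types, and 3 members fell in 2 of these ranges at once. The mesothelial range had 1 member within 1 marker of its limit, the alveolar fibroblast range 3, the smooth muscle range 5 and the fibrosis-associated range 7. Of those 7, 1 was in 3-month bleomycin and had 4 of the markers at 2833 counts. Neither a mesenchymal nor a mesothelial range held 8 members, of which 3 were AT2-high.

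**Figure D3:**
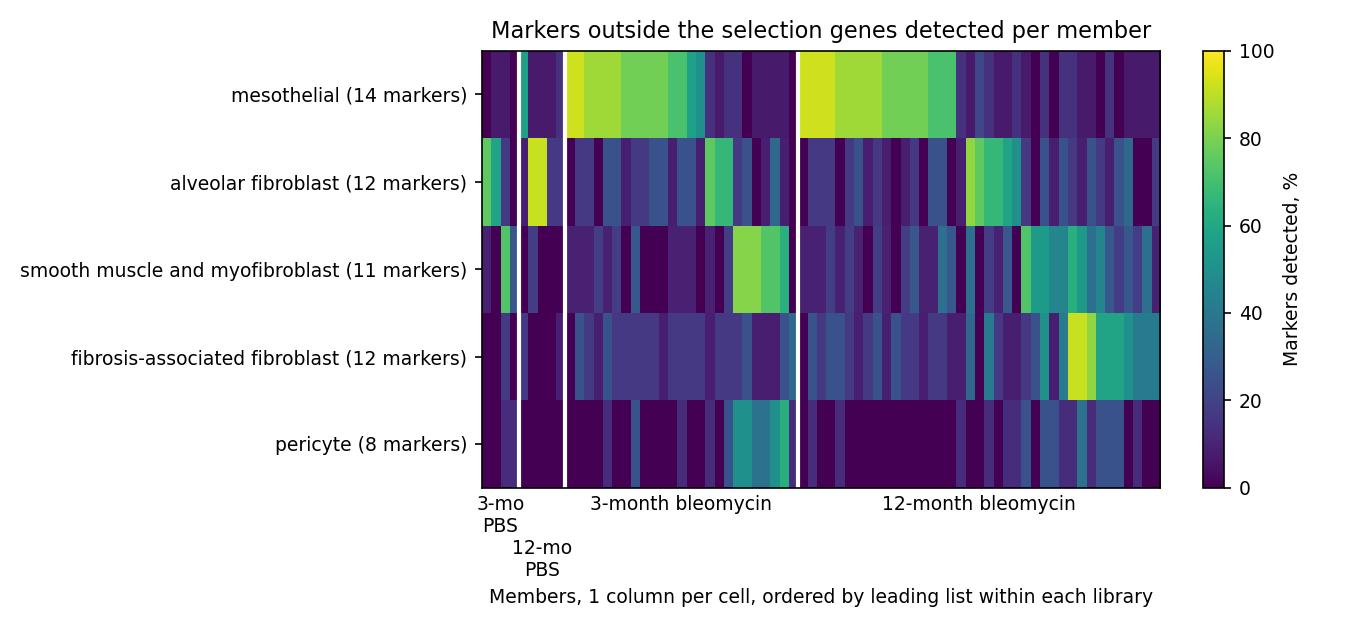
Share of the markers of 5 lists, without the selection genes, that were detected in each of the 73 members (1 column per cell, color from 0 to 100%), ordered by leading list within each library. Mesothelial markers fill a block of 15 cells in 3-month and 17 in 12-month bleomycin, and the cells with most fibrosis-associated markers are all in 12-month bleomycin.

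Against the other cells of the same library, members carried mesenchymal and mesothelial transcripts at high excess and epithelial ones at low levels. Among 1428 genes outside the rule that reached 100 CPM, members had 260 (18.2%) higher by 2-fold or more in both bleomycin libraries and 148 (10.4%) lower by that much. The rule used this contrast, so nothing is read from these counts. The transcription factor gene Wt1, a mesothelial marker, was at 364 CPM in members of 3-month bleomycin and 150 CPM in those of 12-month bleomycin, and at 0.0865 and 0.137 CPM in the other cells (log2 ratios 11.73 and 9.97). Mfap4, a microfibril gene of alveolar fibroblasts, was at 575 and 338 CPM in members and 0.605 and 0.384 CPM in other cells. Loxl1, which crosslinks elastin, was at 285 and 283 CPM against 0.303 and 0.466 CPM. The muscle filament gene Des was at 227 and 305 CPM against 0.303 and 0.439 CPM. The mesenchymal cadherin gene Cdh11 (log2 ratios 10.24 and 9.60) and the growth arrest gene Gas1 (10.25 and 9.05) also stood among the highest.

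Among the genes lowest in members were several of airway and alveolar epithelium. The club cell genes Scgb3a1 and Scgb3a2 had log2 ratios of -3.39 and -3.32 in 3-month bleomycin and of -3.27 for both in 12-month bleomycin. The epithelial cadherin gene Cdh1 had -2.97 and -2.94, the tight junction gene Cldn7 -3.20 and -2.94, and Cebpa, a transcription factor gene of AT2 cells, -3.60 and -2.63. Of the 12 AT2 markers, 12 were at least 2-fold lower in both libraries (medians -2.59 and -2.84, all genes 0.73 and 0.50). Scaling by the median of ratios lowered all log2 ratios of this contrast by 0.58, which gave 176 genes higher and 232 lower.

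Matrix genes outside the rule were also higher in members, in a contrast in which 41.4% and 31.6% of all genes were at least 2-fold higher in 3-month and 12-month bleomycin and 9.80% and 11.1% lower. Elastic fibre and microfibril genes had median log2 ratios of 5.94 (13 of 14 measured genes at least 2-fold higher) and 7.44 (14 of 15) in 3-month and 12-month bleomycin. Eln, the elastin gene, was at 416 and 407 CPM in members (log2 ratios to other cells 6.76 and 8.88). Of the 10 measured complement genes and regulators, 8 and 7 were at least 2-fold higher (medians 5.89 and 4.41). C3, the central complement component, was at 3442 and 2321 CPM against 72.2 and 117 CPM. Rarres2, which encodes the chemoattractant chemerin, was at 5625 and 2805 CPM in members (log2 ratio 9.21 at 3 months).

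The 2 kinds of cell that the rule joins differed sharply from each other. Among 1448 genes outside the rule that reached 100 CPM, the mesothelial subset had 191 (13.2%) higher by 2-fold or more than the remaining members in both bleomycin libraries, and 82 (5.66%) lower by that much. The subset was chosen on 2 genes of these same cells, so these are descriptions. The background of the list counts below is the share over all measured genes: 25.1% and 16.7% had 2-fold or more in the subset in 3-month and 12-month bleomycin, and 12.99% and 15.2% had 2-fold or more in the remaining members. Depth was the limit on the side of the remaining members in 3-month bleomycin, where 144084 of the 189701 member counts came from the 15 subset cells.

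Several defining mesothelial markers had no count in the remaining members. Wt1 had 69 counts in 14 of 15 subset cells of 3-month bleomycin (479 CPM) and 68 in 17 of 18 of 12-month bleomycin (337 CPM), and none in the 10 and 21 remaining members. Set against the limit of 3 counts that a 0 allows, the subset was at least 7.28-fold and at least 28.2-fold higher. Upk1b, a urothelial and mesothelial membrane gene, was at 285 and 640 CPM in the subset and had no count in the remaining members (at least 4.33-fold and 53.5-fold higher). Gpm6a, a membrane glycoprotein gene, was at 1104 and 570 CPM with no count in the remaining members. Rspo1, an enhancer of Wnt signaling, was at 757 and 610 CPM with no count there. Calb2, often used as a mesothelial marker, had no count in any member. The mesothelial list as a whole summed to 10188 and 570 CPM (subset and remaining members) in 3-month bleomycin and to 12863 and 7519 CPM in 12-month bleomycin. The last value came from 1810 counts of the antiprotease gene Slpi in 1 called doublet, and without that cell the remaining members had 320 CPM of the mesothelial list.

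Genes of epithelial character separated the subset as well. Krt19, a keratin gene, was at 965 and 1225 CPM in the subset and at 43.8 and 23.9 CPM in the remaining members. Krt18 was at 361 and 541 CPM against 21.9 and 39.9 CPM. The claudin gene Cldn15 was at 396 and 337 CPM, with no count in the remaining members. Of 8 measured genes of keratins and epithelial junctions, 7 were at least 2-fold higher in 3-month and 6 in 12-month bleomycin (medians 3.09 and 3.87, all genes 0.20 and -0.02). Cdh1 did not share this: it had 0 counts in the subset of 3-month bleomycin and 2 in that of 12-month bleomycin, against 4 and 6 in the remaining members.

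The subset also carried more of several secreted and signaling genes. C3 was at 4435 and 4906 CPM in the subset and at 307 and 243 CPM in the remaining members, which is 14.5-fold (8.55 to 26.6) and 20.2-fold (15.6 to 26.6). Without the cell with most of its counts the remaining members had 98.8 and 156 CPM of C3. Complement genes as a list were at least 2-fold higher for 7 of 9 and 9 of 10 measured members (medians 1.74 and 3.07). Aldh1a2, which makes retinoic acid, was at 396 and 258 CPM in the subset with no count in the remaining members. Igfbp6, which binds insulin-like growth factor, was at 4074 and 2838 CPM against 132 and 108 CPM. The acute-phase gene Saa3 was at 743 and 2952 CPM, from 4 of 15 and 10 of 18 cells, and 1 cell held 513 of the 595 counts at 12 months, without which the level was 435 CPM. The immediate early genes, which respond to stimuli and to tissue dissociation, were at least 2-fold higher in the subset for 11 of 15 and 13 of 15 (medians 1.97 and 2.29). Fos was at 2249 and 1955 CPM in the subset and at 460 and 383 CPM in the remaining members. The part of dissociation in these values was not tested.

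Among the selection genes, which are description only, Dcn and Igfbp5 were higher in the subset and Col1a1 lower. Dcn was at 3005 and 3562 CPM in the subset and at 241 and 486 CPM in the remaining members, where all 11 counts at 3 months were in 1 cell. Igfbp5 was at 2693 and 3195 CPM against 504 and 95.7 CPM, and without 1 subset cell the 12-month level was 1706 CPM. Col1a1 was at 541 and 159 CPM in the subset and at 1688 and 2145 CPM in the remaining members, where it was 840 CPM at 3 months without 1 cell that held 43 of 77 counts. Col1a2 was nearly equal at 3 months, with 1110 and 1206 CPM, and 544 CPM in the remaining members without that cell.

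Contractile and fibroblast genes marked the remaining members. Acta2, the smooth muscle actin gene, was at 4472 and 1742 CPM in the remaining members and at 0 and 34.7 CPM in the subset. Inmt, an amine methyltransferase gene of alveolar fibroblasts, was at 1644 and 403 CPM against 0 and 39.7 CPM, with 82 of the 101 counts of the remaining members at 12 months in 1 cell. Postn, which encodes the matrix protein periostin, was at 548 and 171 CPM, with no count in the subset. Spp1, the osteopontin gene, was at 373 and 8089 CPM against 13.9 and 49.6 CPM. The fibronectin gene Fn1 was at 1293 and 1403 CPM against 48.6 and 29.8 CPM. Smooth muscle genes were at least 2-fold lower in the subset for 8 of 8 and 7 of 7 measured, and alveolar fibroblast genes for 5 of 8 and 6 of 8.

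**Figure D4:**
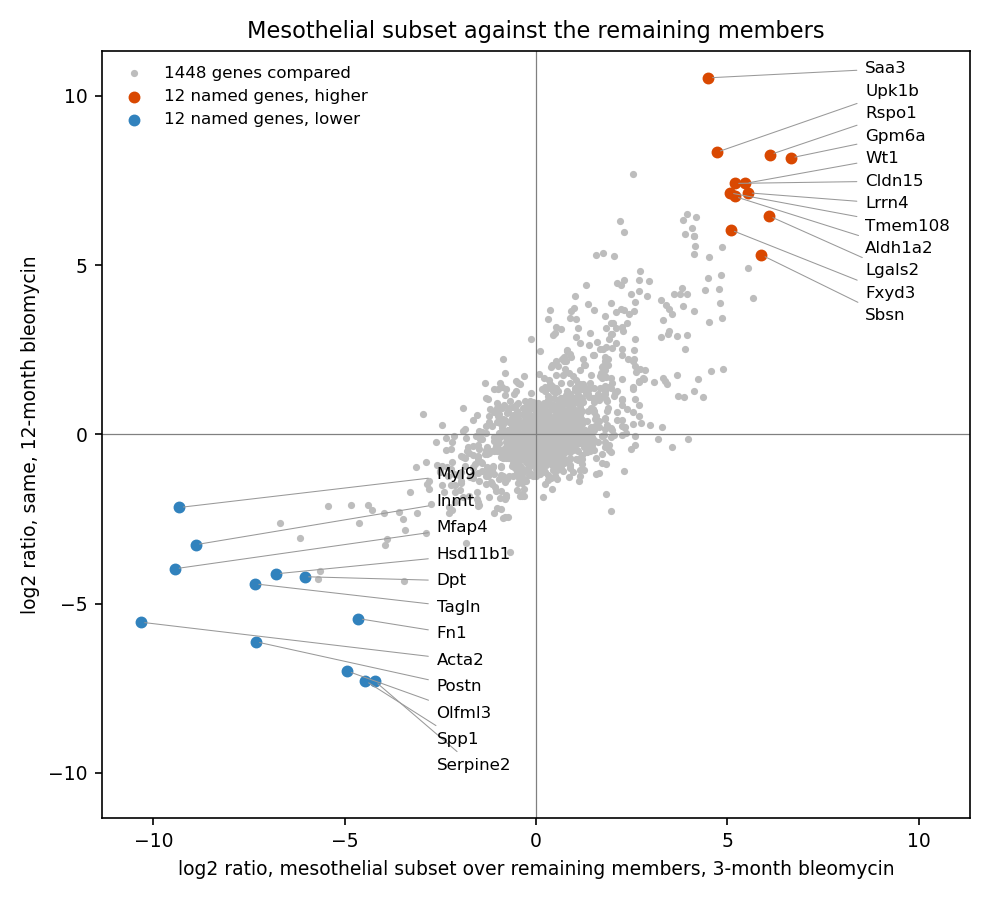
Log2 ratio of summed CPM of the mesothelial subset over the remaining members in 3-month bleomycin (horizontal) and 12-month bleomycin (vertical) for 1448 genes outside the selection rule; orange and blue mark the 12 highest and 12 lowest named genes. The named genes fall in the same corner in both libraries, with Saa3 at 4.50 and 10.53 and Acta2 at -10.34 and -5.55; a ratio against a side with no count depends on the prior of 0.5 count.

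Cells in the alveolar fibroblast marker range were found in all 4 libraries. The 12 genes of that list summed to 12668 and 8177 CPM in the members of 3-month and 12-month PBS and to 1639 and 1021 CPM in those of 3-month and 12-month bleomycin. The mesothelial list went the other way, with 507 and 1214 CPM in the PBS members and 7876 and 9900 CPM in the bleomycin members. Without 1 called doublet with 1810 counts of Slpi, the mesothelial list of 12-month bleomycin summed to 6122 CPM, below the 3-month value. Without 1 cell with 17 of the 34 counts, the mesothelial list of 12-month PBS summed to 637 CPM. The 2 cells of 3-month PBS had 9 and 23 counts of Inmt, the 2 of 12-month PBS had 66 and 62, the 3 of 3-month bleomycin had 32, 26 and 17, and the 5 of 12-month bleomycin had 10, 82, 1, 6 and 7. As summed levels Inmt was at 6051, 16285, 6462 and 2754 CPM. Gsn, the actin-severing gelsolin gene, was at 9077 and 15394 CPM in the PBS cells and at 10511 and 3949 CPM in the bleomycin cells. Col3a1 had 1 and 3 counts in the cells of 3-month PBS and none in those of 12-month PBS, and it was at 12492 and 1845 CPM in the bleomycin cells, where 114 of the 145 counts at 3 months came from 1 cell. C4b, a complement component gene, had no count in the 4 PBS cells and a count in all 3 and all 5 bleomycin cells (3188 and 831 CPM). The PBS cells held 5288 and 7860 counts in all, and the 3 counts that a 0 allows correspond to 567 and 382 CPM of C4b there. These levels rest on 2 to 5 cells a library, and the 12-month bleomycin cells include 1 with AT2 transcripts and 1 called doublet with 2089 counts of the immunoglobulin joining chain gene Jchain. These 2 cells held 24245 of the 38490 counts at 12 months. Without them Inmt was at 6880 CPM, Gsn at 9266 CPM and C4b at 1825 CPM.

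Cells in the smooth muscle and myofibroblast range were 1, 0, 6 and 2 in the 4 libraries. Acta2 was at 7887 CPM in the cell of 3-month PBS, and its median was 7240 CPM over the 6 cells of 3-month bleomycin (847 to 12937). In 12-month bleomycin the cells were at 2576 and 11383 CPM of Acta2, and the first of them held 39979 of the 44020 counts of the range. Tagln was at 11549 CPM in the PBS cell, at 4138 CPM in the sum of 3-month bleomycin and at 2226 CPM in that of 12-month bleomycin, or 10146 CPM without the deep cell. No order between the libraries is therefore read from these genes. Des had no count in the PBS cell, which held 3550 counts in all, and was at 1251 and 1181 CPM in the bleomycin cells. At 12 months the deep cell held 45 of the Des counts and the other cell 7. A 0 in 1 cell of that depth is not read as a difference. The deep cell of 12-month bleomycin was also in the fibrosis-associated range.

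The 13 cells in the fibrosis-associated range, all from 12-month bleomycin, held 182492 counts. Fn1, Mgp, Col1a1, Lgals1 and Serpine2, the gene of a serine protease inhibitor, each had a count in 13 of 13 cells (1732, 13650, 2806, 7743 and 1496 CPM). Mgp and Col1a1 are selection genes of the members. Timp1 had a count in 12 cells, Tnc in 11 and Cthrc1 in 8, but these genes are among the markers that define the range. Acta2 had a count in 9 cells. Wt1 had no count, and Inmt had 1 count in 1 cell. In the 5 alveolar fibroblast range cells of the same library Spp1 had 2 counts, against 2028 in the fibrosis-associated range cells. The 2 groups share 1 AT2-high cell, which held 1 count of Spp1 and the 1 count of Inmt.

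In members after bleomycin, the 12-month library was compared with the 3-month one. Among 1773 genes that reached 100 CPM in either library, 125 (7.05%) were higher by 2-fold or more at 12 months and 196 (11.1%) lower by that much. Under median-of-ratios scaling, which raised the log2 ratios by 0.22, these counts were 174 and 129. The makeup of the members differed between the libraries, so values are given within the mesothelial subset (15 and 18 cells) and within the remaining members (10 and 21 cells). Within the remaining members, smooth muscle range cells were 6 of 10 at 3 months, and fibrosis-associated range cells were 13 of 21 at 12 months. A difference within the remaining members therefore cannot be told apart from a different mix of cells.

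Several fibrosis-associated genes were higher at 12 months within the remaining members. Of 11 measured genes of that list, 7 were at least 2-fold higher at 12 months and 2 at least 2-fold lower, with a median log2 ratio of 2.32 (all genes 0.06). The background of the list counts in the remaining members is the share over all genes measured there, with 19.4% higher by 2-fold or more and 17.9% lower by that much. The median was 1.04 with genes that had no count on 1 side set to 3 counts. With every cell weighing the same it was 1.33, with 6 genes higher. Timp1, an inhibitor of metalloproteinases, was at 43.8 CPM at 3 months (2 counts in 2 of 10 cells) and 1690 CPM at 12 months (15 of 21 cells). Tnc, which encodes tenascin C, was at 43.8 and 307 CPM, with a count in 1 of 10 and 14 of 21 cells, and it was 182 CPM at 12 months without the cell with most of its counts. Fst, an activin antagonist, had no count at 3 months and was at 215 CPM at 12 months (at least 3.27-fold higher), or 139 CPM without the cell with most of its counts. Cthrc1, a secreted gene of fibrotic fibroblasts, was at 87.7 and 490 CPM, with 98 of the 123 counts at 12 months in 1 cell, without which the level was 119 CPM. Postn was at 548 and 171 CPM, but 18 of the 25 counts at 3 months were in the pericyte range cell, and without it the 3-month level was 162 CPM.

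Spp1, which is not in that list, also differed. It was at 373 CPM in the remaining members at 3 months, where 1 cell held 15 of 17 counts and the rest gave 46.7 CPM, and at 8089 CPM at 12 months (21.7-fold, 13.5 to 37.3). The 13 fibrosis-associated range cells at 12 months all had Spp1, from 1 to 673 counts per cell, with 11113 CPM summed. In the mesothelial subset Spp1 was at 13.9 and 49.6 CPM, and in the other cells at 159 and 256 CPM. Lgals1, the galectin 1 gene, was at 1754 and 6590 CPM in the remaining members and at 1312 and 1875 CPM in the subset. Tgfb1, the ligand of the TGF-beta pathway, had no count in the 10 remaining members at 3 months and a count in 14 of 21 at 12 months (164 CPM, at least 2.49-fold higher). Of the 10 TGF-beta pathway genes measured in the remaining members 2 were higher and 1 lower (median -0.45), which is near the share over all genes.

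The fibrosis-associated cells at 12 months were the ones most affected by depth. The share of members in that range was 13 of 39 (33.3%, 19.1 to 50.2) at 12 months and 0 of 25 (upper bound 13.7%) at 3 months. After thinning to 2000 counts it was 3 of 39 and 0 of 25. Members at 12 months had a median of 10274 counts and those at 3 months 7098. The part of depth in the unthinned difference was not tested beyond this.

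Contractile genes were lower at 12 months in the remaining members. Of 8 measured smooth muscle and myofibroblast genes 6 were at least 2-fold lower and none higher (median -2.20). Acta2 was at 4472 and 1742 CPM, or 2.57-fold (2.16 to 3.04) lower, with a count in 6 of 10 and 13 of 21 cells. Tagln, an actin-binding gene of smooth muscle, was at 2828 and 793 CPM. Myh11, the smooth muscle myosin heavy chain gene, was at 614 and 15.9 CPM, with all 4 of the 12-month counts in 1 cell. The pericyte genes had a median of -3.93, with 5 of 5 lower. The pericyte range held 1 member at 3 months and none at 12 months. Outside the members, 2 endothelial-marker cells of 12-month bleomycin were in that range. In the endothelial-marker cells the pericyte list summed to 20.2 CPM at 3 months and 318 CPM at 12 months. There 3 of 3 measured genes were at least 2-fold higher, against 9.03% of all genes measured in those cells. Cox4i2, a respiratory subunit gene found in pericytes, was at 504 and 12.0 CPM in the remaining members. Of its 23 counts at 3 months, 13 were in the pericyte range member. Acta2 itself was not confined to smooth muscle range cells: at 12 months the fibrosis-associated range cells had it at 1764 CPM in 9 of 13 cells, without counts of Myh11. Of these 9 cells 1, with 103 counts of Acta2, was also in the smooth muscle range.

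Other lists also differed in the remaining members. Proliferation genes were at least 2-fold higher for 6 of 6 measured (median 1.61, or 1.12 with genes without a count set to 3 counts), and chemokines and cytokines for 7 of 8 (median 2.02, or 0.67). Complement genes were at least 2-fold lower for 4 of 8 (median -1.25). In the mesothelial subset the medians of these lists were -0.02, 0.43 and -0.01. In the other cells they were 0.97, 1.22 and 0.58, so higher proliferation and chemokine medians at 12 months were not limited to the remaining members.

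Alveolar fibroblast genes were lower as well, with 6 of 9 measured at least 2-fold lower and none higher (median -1.84); Mfap4 was at 2389 and 582 CPM, and without the cell with most counts in each library at 1017 and 292 CPM. Genes of collagen processing and crosslinking had a median of 0.71 (0.35 with genes without a count set to 3 counts), with 5 of 17 higher and 1 lower. Serpinh1, the collagen chaperone gene, was at 460 CPM in the remaining members at 3 months and 1898 CPM at 12 months. The collagen genes of the rule differed in direction: Col3a1 was at 4691 and 1264 CPM (2471 CPM at 3 months without the cell with most of its counts), and Col1a2 at 1206 and 2261 CPM.

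In the mesothelial subset, 2 of 13 measured mesothelial genes were at least 2-fold higher at 12 months and none at least 2-fold lower (median -0.31, all genes -0.12); Wt1 was at 479 and 337 CPM. Upk1b (285 and 640 CPM) was higher at 12 months, and Gpm6a (1104 and 570 CPM) and Lrrn4 (507 and 278 CPM) were lower. Over all genes of the subset, 11.3% were lower by 2-fold or more and 6.71% higher by that much. Of the matrix lists, 1 of 12 genes of collagen processing, 1 of 8 network and beaded collagens, 1 of 4 small proteoglycans, 2 of 11 elastic fibre genes and 2 of 8 laminins and adhesive glycoproteins were lower, and 1 elastic fibre gene was higher. Of the collagen genes of the rule, Col1a1 was at 541 and 159 CPM and Col3a1 at 2006 and 933 CPM, while Dcn (3005 and 3562 CPM) and Mgp (3213 and 5888 CPM) were higher at 12 months.

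Most listed antigen presentation genes were higher at 12 months in both kinds of member. Class I genes outside that list did not all share this. Over all members, the class I gene H2-Q1 ranked 3 among the 12 genes lowest at 12 months, and H2-Q7 ranked 8 among the 12 highest. In the mesothelial subset 13 of 14 measured MHC class I and II genes were at least 2-fold higher (median 1.71, against 6.71% of all genes), and in the remaining members 9 of 14 (median 1.77, or 0.88 with genes without a count set to 3 counts). The other cells of the same libraries had 9 of 14 higher (median 1.46, against 9.02% of all genes), so higher values at 12 months were not limited to the members. B2m, the shared light chain of class I, was at 1631 and 8364 CPM in the subset (5.13-fold, 4.47 to 5.90) and at 1600 and 6742 CPM in the remaining members (1017 CPM at 3 months without 1 cell). It had a count in every member of both libraries. The class I gene H2-K1 was at 659 and 3130 CPM in the subset and at 438 and 1754 CPM in the remaining members (237 CPM at 3 months without the cell with most of its counts). The class II gene H2-Aa was at 236 and 1047 CPM in the subset and at 592 and 367 CPM in the remaining members. Class II RNA is abundant in the AT2 cells of these libraries (H2-Aa at 2417 and 3361 CPM in other cells), so a share of it in members can be free RNA. Of the 27 H2-Aa counts in the remaining members at 3 months, 26 were in 1 cell.

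Interferon response genes followed the same direction, with the largest median in the other cells. The median log2 ratio was 0.91 in the mesothelial subset (7 of 15 at least 2-fold higher), 2.06 in the remaining members (12 of 16, or 1.05 with genes without a count set to 3 counts) and 2.57 in the other cells (16 of 20). Bst2, a membrane restriction factor, was at 562 and 1240 CPM in the subset, at 43.8 and 419 CPM in the remaining members and at 62.7 and 296 CPM in the other cells. Ifi27l2a was at 514 and 1151 CPM, at 65.8 and 905 CPM, and at 27.2 and 882 CPM in the same order. At 3 months the subset thus had both genes above the remaining members and the other cells. The chemokine gene Cxcl10, induced by interferon, was at 27.8 and 194 CPM in the subset. In the remaining members it had no count at 3 months and 187 counts at 12 months, from 3 of 21 cells. Ly6a, the stem cell antigen Sca-1 gene and also induced by interferon, had no count in the subset at 3 months and a count in 14 of 18 subset cells at 12 months (521 CPM, or 283 CPM without the cell with most counts). In the remaining members Ly6a was at 21.9 and 1192 CPM, and 1 cell held 204 of the 299 counts at 12 months, without which the level was 406 CPM.

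**Figure D5:**
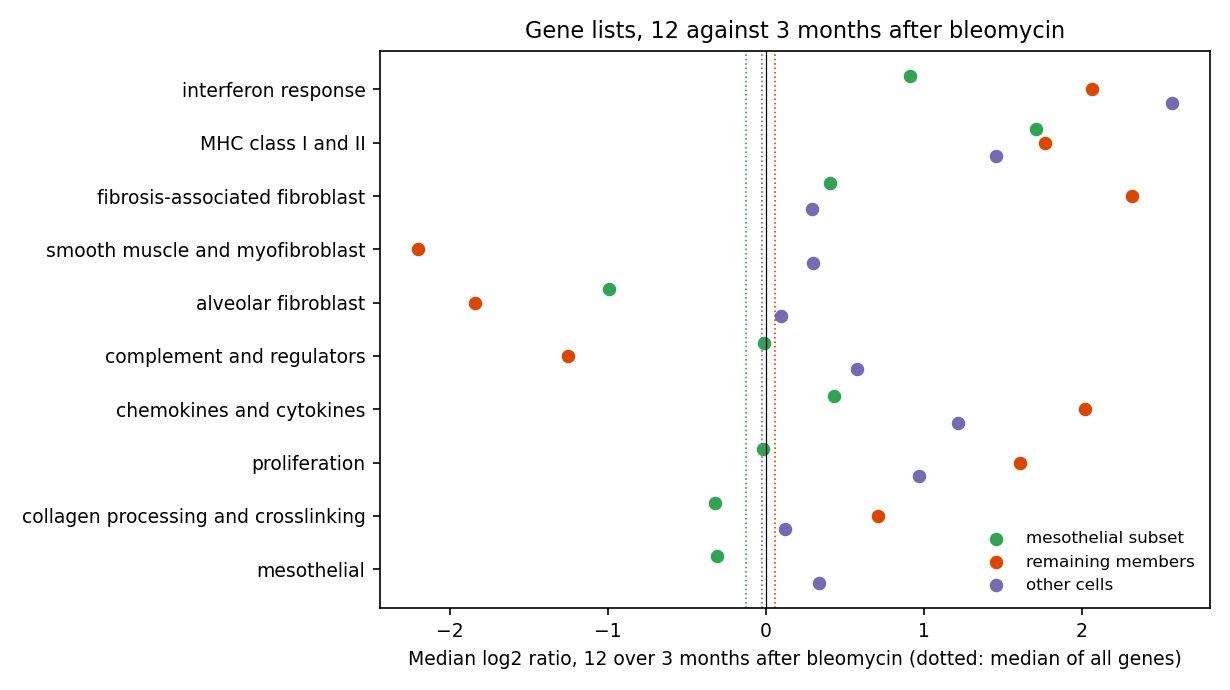
Median log2 ratio of 12 over 3 months after bleomycin (horizontal) for 10 gene lists without the selection genes, in the mesothelial subset, the remaining members and the other cells (lists with fewer than 3 measured genes are not drawn); dotted lines are the medians of all genes. Antigen presentation lies between 1.46 and 1.77 in all 3 groups, and smooth muscle genes lie at -2.20 in the remaining members.

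Transcripts of other cell types differed between the members of the bleomycin libraries, largely through single cells. The 5 leukocyte genes had no count in members at 3 months after bleomycin and summed to 338 CPM at 12 months, against 55.9 and 310 CPM in the other cells. Most of the leukocyte counts in members at 12 months came from single cells with 47, 30, 27 and 20 counts. Ptprc, which encodes the sort antigen CD45, had 5 counts in 3 of 18 subset cells at 12 months and none in the other members. Plasma cell genes summed to 10.5 and 7168 CPM in members: 2 members of 12-month bleomycin held 2089 and 916 of the Jchain counts, and Jchain was at 1249 CPM in the other cells of that library. The macrophage list summed to 36.9 and 334 CPM in members, with Marco at 0 in all of them. Most of its counts at 12 months came from single cells with 48, 36, 18 and 16 counts. The part of these transcripts of other cell types in the differences with age was not tested. Without the 2 Jchain-rich members, the medians of antigen presentation were 1.71 in the subset and 1.71 in the remaining members, and that of the fibrosis-associated list was 2.42. The 2 deepest members, with over 30000 counts each, were both remaining members of 12-month bleomycin, and without them that list had a median of 2.20.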

How the data were processed

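Single-cell RNA of sorted lung cells was measured with a droplet 3' kit in 4 libraries, 1 per group, each from 3 pooled mice. The deposited files hold UMI counts per gene and barcode, whole numbers without normalization. The authors used Seurat 3.2.2, genome build mm10 and a Cell Ranger release not given in the sources used here, per the submitters' processing notes. Libraries held 11381566 to 36960380 counts and 27998 genes.

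Cells were kept at 500 genes or more and 20% mitochondrial counts or less. Counts of members, of the mesothelial subset and of other cells were summed per library and scaled to CPM. Log2 ratios used a prior of 0.5 count; intervals were exact Poisson, binomial (shares) or conditional binomial (ratios). Ratios needed 10 cells a side, and gene counts needed 100 CPM on a side and a 2-fold difference. A gene without a count on 1 side was set to 3 counts for "at least" folds. Genes were named from the rule genes, the 12 highest and 12 lowest log2 ratios of each comparison (counting interval clear of 0, same direction in each library), all fibroblast and mesothelial markers and the 6 most abundant genes of each list. Genes outside this set were picked after their values were seen. Rule genes were left out of all lists and counts. The marker and pathway lists numbered 46, and the members and lists were chosen with earlier results of these data known. Doublets were called with Scrublet in scanpy 1.11.5 (76, 69, 69 and 106 cells) and were kept. The ratio and interval code was tested on simulated data. Alternatives were scaling, CPM minimum, rule threshold, depth and leaving out doubted members. Analyses used numpy 2.4.6, scipy 1.17.1 and pandas 2.3.3.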

Additional observations from a re-analysis of the deposited data

Results flagged for a closer look

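Between the mesothelial subset and the remaining members, 8 of 1320 genes compared had opposite signs in the 2 bleomycin libraries by at least 2-fold each way, with every counting interval clear of 0; the difference between the libraries itself was not tested, since each group is 1 library. The values are log2 ratios of the subset over the remaining members. Timp1, the metalloproteinase inhibitor gene, had 1.95 at 3 months and -2.25 at 12 months. The collagen chaperone gene Serpinh1 had 1.12 and -1.39. Both genes were at higher levels in the remaining members at 12 months than at 3 months, and the fibrosis-associated range cells were found in the 12-month library.

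The class II gene H2-Aa had -1.33 and 1.51, and 26 of the 27 counts of the remaining members at 3 months were in 1 cell. The cyclin-dependent kinase gene Cdk4 had 1.84 and -1.75, and the mitochondrial import gene Tomm22 had 2.31 and -1.09. The desaturase gene Scd2 had 1.56 and -1.17, Morf4l2 had 1.26 and -1.06, and Dpysl2 had -1.26 and 1.05.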

How the results depend on the processing

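No paired analysis was possible because each group is 1 library and the labels give no replicate numbers. Over the alternatives, 598 values of named genes, 78 list medians and 64 shares moved by less than their limits, while 25 values of named genes, 2 list medians and 4 shares moved and 1 gene reversed; levels without single cells, given beside the levels, are not in these counts. Splitting the ages by subset and leaving out Jchain-rich members, very deep members or the cell with most counts of a gene were chosen after seeing the data. In 12-month PBS, thinning to 2000 counts gave a member share of 0.0381%, and thinning to 3000 or 2000 counts left 0 cells in the mesothelial subset. Accepting 3 of the 10 genes gave a member share of 2.17% in 12-month bleomycin. Of the 34 added cells in the series, 20 were at or above the AT2 limit, the median share of the other cells divided by 4.

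Counts of genes followed the minimum level, because it sets how many genes are compared. Members against other cells gave 80 higher and 65 lower at 300 CPM, 2831 and 660 with no minimum beyond 10 counts, and 232 lower under median-of-ratios scaling. The subset against the remaining members gave 82 and 35 at 300 CPM, and 328 and 128 with no minimum. The ages in members gave 33 and 47 at 300 CPM, 639 and 1007 with no minimum, 129 lower under median-of-ratios scaling, and 318 and 439 within the remaining members alone. Serpinf1, higher at 12 months in all members, had -0.48 in the subset alone, where it had no count in either library. Weighing every cell the same moved the fibrosis-associated median in the remaining members from 2.32 to 1.33.

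The PBS members were too few for ratios, so the effect of bleomycin on gene levels within members, and alternatives to it, were not computed. Members were 4 to 39 cells a library, and single cells decided several values named above.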
